A study of Homo sapiens with 12 samples.

Results

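The data describe 6 genes in THP1 monocytes, METTL7B, NACC2, OSBPL5, PPP1R27, FAM129A and A2M, out of the 58735 genes of the deposited count table. They were chosen for their measured values, because each differed from mono-culture in the same direction and by a like amount in all 3 co-cultures with endothelial cells (ECs). Their differences from mono-culture are therefore given as a description with no test. Being alike in the 3 co-cultures was part of the choice too, so their differences between co-cultures are likewise a description, and tests are given for other genes only. METTL7B, NACC2, OSBPL5, PPP1R27 and FAM129A stood higher in co-culture, and A2M stood lower.

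THP1 is a human leukemia line with monocytic features, of wild-type genotype here, so that every library came from 1 line. The cells sat in the upper chamber of an insert with 1 µm pores for 24 h, above human umbilical vein ECs that had received DMSO (control ECs), etoposide to make them senescent (senECs), or etoposide and then epigallocatechin gallate (EGCG-treated senECs). Mono-culture was the same endothelial medium with no ECs, so that the 2 kinds of culture differed in the presence of ECs. In all 4 groups the THP1 cells were then taken out and stimulated with lipopolysaccharide (LPS) at 100 ng/ml for 2 h, and their RNA was sequenced from 3 libraries per group. No group without LPS was analysed here, so each value below is a level after LPS. The replicates are numbered 1, 2 and 3 in mono-culture and in co-culture with control ECs, and 1, 2 and 5 in the other co-cultures. Nothing in the labels says that they were separate cultures, so the p-values measure the spread between these libraries.

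The 6 genes belong to no single pathway. METTL7B encodes a membrane-bound methyltransferase that adds a methyl group to thiols such as hydrogen sulfide, and OSBPL5 encodes a lipid transfer protein of contact sites between the endoplasmic reticulum and the plasma membrane, which exchanges phosphatidylserine for a phosphoinositide. NACC2 is a BTB-domain transcriptional repressor known to bring the NuRD deacetylase complex to the MDM2 promoter, PPP1R27 is a small ankyrin-repeat protein that binds and inhibits protein phosphatase 1, FAM129A (also NIBAN1) is a cytoplasmic protein induced by stress of the endoplasmic reticulum, and A2M (alpha-2-macroglobulin) is a secreted protease trap cleared through the receptor LRP1.

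On GRCh38 (GENCODE 29) the members lie on 5 chromosomes, and all are protein-coding. METTL7B (ENSG00000170439.6) spans chr12:55681546-55684611 on the plus strand, with 1506 bases of exon in 2 blocks. The other members lie on the minus strand. NACC2 (ENSG00000148411.7) spans chr9:136006537-136095285, OSBPL5 (ENSG00000021762.19) spans chr11:3087116-3166739 and PPP1R27 (ENSG00000182676.4) spans chr17:81833492-81835050. FAM129A (ENSG00000135842.16) spans chr1:184790724-184974550, and A2M (ENSG00000175899.14) spans chr12:9067664-9116229. METTL7B and A2M, which share chromosome 12, moved in opposite directions.

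Promoter windows of 300 bases, from 250 before the RefSeq start to 50 after it (GRCh38.p14), matched 5 of the 6 members, METTL7B under its newer symbol TMT1B and FAM129A as NIBAN1. No window was matched for A2M. A search of both strands used 10 short motifs. The GC box GGGCGG was the only one of them that all 5 windows held, and 45.0% of all 35116 windows held it. Windows of 3 members with higher levels in co-culture are printed to show how unlike they were in base composition, 5′ to 3′ on the gene's strand, with capitals on the motif matches of either strand. That of NACC2 is chr9:136095240-136095539, that of PPP1R27 is chr17:81835001-81835300 and that of METTL7B is chr12:55681486-55681785.
NACC2: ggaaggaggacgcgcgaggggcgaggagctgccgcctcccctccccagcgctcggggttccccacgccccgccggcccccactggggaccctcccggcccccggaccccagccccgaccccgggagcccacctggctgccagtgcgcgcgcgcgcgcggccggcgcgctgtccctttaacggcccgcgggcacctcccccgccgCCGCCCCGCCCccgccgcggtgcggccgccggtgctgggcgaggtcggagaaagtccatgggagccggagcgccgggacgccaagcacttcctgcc
PPP1R27: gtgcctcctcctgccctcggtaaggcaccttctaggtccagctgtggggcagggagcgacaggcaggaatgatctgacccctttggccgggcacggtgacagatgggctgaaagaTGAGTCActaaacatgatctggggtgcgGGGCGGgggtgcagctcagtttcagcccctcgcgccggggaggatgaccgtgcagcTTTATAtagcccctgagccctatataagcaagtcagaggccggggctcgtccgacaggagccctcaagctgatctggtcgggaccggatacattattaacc
METTL7B: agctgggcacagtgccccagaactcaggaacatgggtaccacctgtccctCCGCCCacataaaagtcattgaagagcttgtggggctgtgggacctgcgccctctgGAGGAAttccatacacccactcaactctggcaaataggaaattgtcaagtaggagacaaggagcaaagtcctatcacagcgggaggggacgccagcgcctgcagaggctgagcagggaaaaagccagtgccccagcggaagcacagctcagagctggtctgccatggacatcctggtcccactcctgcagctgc

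The GC content of these windows was 80.7% in NACC2, 60.3% in PPP1R27 and 58.0% in METTL7B, against a median of 58.7% over all windows. The observed over expected ratio of CpG was 0.895, 0.554 and 0.238 in the same order, with a median of 0.579 over all windows. The OSBPL5 window had 77.3% GC and a CpG ratio of 0.826, and the FAM129A window had 60.7% and 0.656. NACC2 and OSBPL5 thus had CpG-rich starts, while METTL7B had few CpG. In NACC2 the GC box matched on the opposite strand at -46 to -41 and at -41 to -36 from the start, and these matches share 1 base. The PPP1R27 window also held the AP-1 motif TGANTCA at -135 to -129 (7.71% of all windows) and the TATA box TATAAA on the opposite strand at -51 to -46 (11.5%). The PU.1 core GAGGAA was in METTL7B and FAM129A (27.9% of all windows). None of the 5 windows held the STAT motif TTCNNNGAA (7.66%), the octamer ATGCAAAT (1.77%), CCAAT (34.6%), the E-box CACGTG (7.26%), the glucocorticoid half-site AGAACA (14.8%) or the C/EBP motif TTGCNNCAA (1.98%). These matches say only which letters the windows held.

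The 12 libraries held 15439836 to 22092600 counts. Levels are given in CPM (counts scaled to the library total) on library sizes scaled by TMM, and, to compare genes, in FPKM, the same value divided by exon length in kilobases. The test was edgeR's quasi-likelihood test on all 12 libraries, over the 25873 genes with at least 10 counts in total, which all 6 members passed, and a gene was called at an adjusted p below 0.05. THP1 markers were present, with 12 of 12 listed monocytic genes counted in every group, although CD68 had only 2 to 16 counts per library. Of 18 listed endothelial genes, 13 to 16 had a count in each group, and their summed level was 162 to 187 CPM in mono-culture and 159 to 183, 200.1 to 240 and 192 to 247 CPM in the control EC, senEC and EGCG-treated senEC co-cultures. PECAM1, with 2281 counts or more in every library, and EGFL7 made up most of that sum, in mono-culture too. CDH5 had 0 or 1 count per library and MMRN1 and CLEC14A had none. ERG had 3, 11 and 8 counts in mono-culture against 20, 37 and 17 in the control EC, 19, 13 and 19 in the senEC and 3, 13 and 22 in the EGCG-treated senEC co-culture, and ANGPT2 had 71 counts in control EC replicate 2 and 2 to 20 in the other libraries. VWF and KDR, in contrast, had lower mean CPM in each co-culture than in mono-culture. The part of endothelial RNA in the values of the members and their relatives was not tested.

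**Figure D1:**
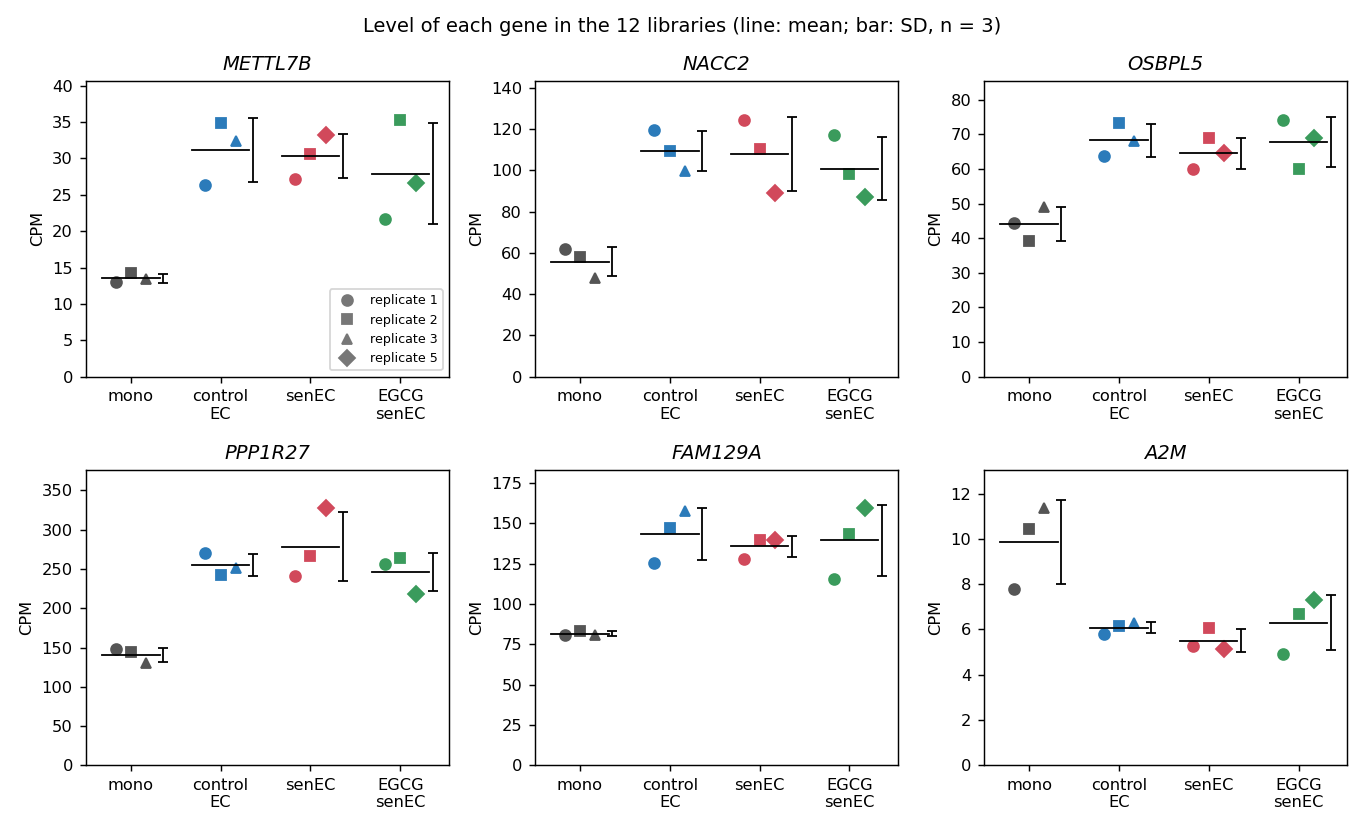
Level of each of the 6 genes in CPM (vertical axes, each from 0) in the 12 libraries, by culture; points are libraries with their replicate numbers and bars are group means with SD (n = 3). The 9 co-culture libraries lie above the 3 of mono-culture for 5 genes and below them for A2M, where 7.29 and 7.77 CPM come closest.

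METTL7B, the methyltransferase, had the largest fold of the 6. Its level was 13.0, 14.2 and 13.4 CPM in mono-culture replicates 1, 2 and 3. The control EC co-culture gave 26.3, 34.9 and 32.3 CPM, the senEC co-culture 27.2, 30.5 and 33.2 CPM and the EGCG-treated senEC co-culture 21.6, 35.3 and 26.7 CPM. Every co-culture library stood above every mono-culture library, and the 3 co-cultures overlapped one another. The means were 13.5 ± 0.622 (SD, n = 3), 31.2 ± 4.39, 30.3 ± 3.03 and 27.9 ± 6.93 CPM in that order of groups, so the spread was wider in co-culture than in mono-culture. The fitted log2 fold change against mono-culture was 1.20 (SE 0.16) for the control EC co-culture, 1.16 (SE 0.16) for the senEC co-culture and 1.04 (SE 0.16) for the EGCG-treated senEC co-culture. In bulk RNA, a change in the share of cells that express a gene cannot be told apart from a change in RNA per cell, here and for each gene below.

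NACC2, the repressor, also stood higher in every co-culture. It measured 61.7, 57.9 and 47.8 CPM in mono-culture. Above control ECs the level was 119, 109 and 99.7 CPM, above senECs 125, 110.5 and 88.9 CPM, and above EGCG-treated senECs 117, 98.3 and 87.0 CPM. The lowest co-culture library lay 1.41 times above the highest mono-culture library, and the co-cultures overlapped. Replicate 1 was the highest library in 4 of 4 groups, so the order of the libraries within groups was shared. In the order of the co-cultures just given, the log2 fold changes were 0.97 (SE 0.14), 0.95 (SE 0.14) and 0.85 (SE 0.14).

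OSBPL5, the lipid exchanger, had the smallest fold of the 5 genes that were higher. It measured 44.3, 39.2 and 48.9 CPM in mono-culture. It stood at 63.7, 73.2 and 68.0 CPM above control ECs, at 60.0, 68.8 and 64.7 CPM above senECs and at 74.3, 60.0 and 68.8 CPM above EGCG-treated senECs. No co-culture library fell into the mono-culture range, and the lowest stood 1.23 times above it, the narrowest gap of the 5 higher genes. The log2 fold changes were 0.63 (SE 0.11), 0.55 (SE 0.11) and 0.62 (SE 0.11), and the co-cultures overlapped.

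PPP1R27, the phosphatase inhibitor, was the most abundant member per length, at 97.4 ± 6.11 FPKM (SD, n = 3) in mono-culture. Its level was 148, 145 and 131 CPM in mono-culture. The control EC libraries held 270.4, 243 and 251 CPM, the senEC libraries 242, 267 and 327 CPM and the EGCG-treated senEC libraries 257, 264 and 219 CPM. SenEC replicate 5 was the highest of the 12 libraries and no co-culture library overlapped mono-culture. The log2 fold changes were 0.85, 0.98 and 0.80 (SE 0.12, 0.12 and 0.12), the only member with its largest fold in the senEC co-culture among those that were higher.

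FAM129A, the stress-induced protein, had the tightest mono-culture group, with 80.6, 83.4 and 81.0 CPM. The co-cultures had 126, 147 and 158 CPM (control ECs), 128, 139.5 and 139.8 CPM (senECs) and 116, 144 and 159 CPM (EGCG-treated senECs). Replicate 1 was the lowest library in 4 of 4 groups, as it was for METTL7B, and the co-cultures overlapped one another but not mono-culture. The log2 fold changes were 0.81 (SE 0.12), 0.73 (SE 0.12) and 0.77 (SE 0.12).

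A2M, the protease trap, was the only member lower in co-culture and the least abundant, with 81 to 206 counts per library. It measured 7.77, 10.4 and 11.3 CPM in mono-culture. The co-culture levels were 5.81, 6.15 and 6.28 CPM (control ECs), 5.26, 6.07 and 5.14 CPM (senECs) and 4.93, 6.67 and 7.29 CPM (EGCG-treated senECs). All co-culture libraries lay below mono-culture, but EGCG-treated senEC replicate 5 came close to mono-culture replicate 1, which stood 1.07 times above it. The log2 fold changes were -0.70 (SE 0.19), -0.84 (SE 0.20) and -0.65 (SE 0.19).

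For all 6 members the 9 co-culture libraries and the 3 of mono-culture did not overlap, a pattern that 3.41% of the tested genes had (1.77% with co-culture higher and 1.64% lower). The share of tested genes called against mono-culture was 0.143% for the control EC, 0.309% for the senEC and 0.213% for the EGCG-treated senEC co-culture. Since the members were chosen on these contrasts, nothing is read from this. Each of the 3 contrasts uses the same 3 mono-culture libraries, so their values for a member are not independent of one another.

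Per length, the members ranked PPP1R27, FAM129A, METTL7B, NACC2, OSBPL5 and A2M in mono-culture, at 97.4, 9.76, 8.98, 7.74, 5.92 and 1.54 FPKM. Over the 9 co-culture libraries METTL7B, at 19.8 FPKM, stood above FAM129A, at 16.7 FPKM. PPP1R27 reached 179 FPKM, NACC2 14.7 and OSBPL5 8.95, while A2M was at 0.933 FPKM. PPP1R27 thus lay far above the others in both kinds of culture, and METTL7B passed FAM129A in the mean. Neighbours in this order were not tested against each other, and METTL7B and FAM129A overlapped in co-culture, with 18.5 ± 4.60 and 16.7 ± 2.65 FPKM (SD, n = 3) with EGCG-treated senECs.

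**Figure D2:**
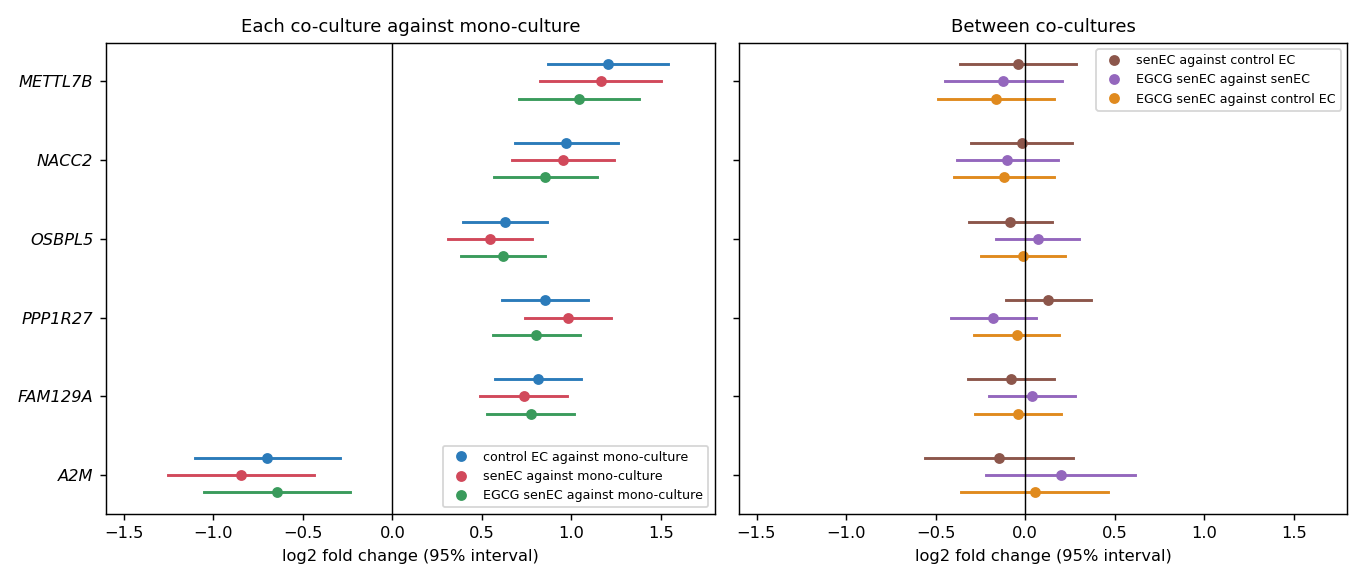
Fold changes on the log2 scale (horizontal axes) for the 6 genes with 95% intervals from the edgeR fit, each co-culture against mono-culture on the left and between co-cultures on the right. The intervals take no account of the choice of the genes by these values and are no test. The values on the left lie between 0.55 and 1.20 for 5 genes and between -0.84 and -0.65 for A2M, and those on the right lie between -0.18 and 0.20.

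The comparison of the co-cultures asks whether senescence of the ECs, or EGCG given to senescent ECs, went with a difference in the members among the co-cultures. With senECs against control ECs, the log2 fold changes of the 6 members ran from -0.15 (A2M) to 0.13 (PPP1R27). Since the members were chosen for being alike here, no test of them is given and the small differences say nothing on the effect of senescence. The 95% intervals of the differences reached from -0.56 to 0.37, and the widest was that of A2M, from -0.56 to 0.27. Over the 25873 tested genes edgeR called 0.0% in this contrast (1709 at an unadjusted p below 0.05 and 0 by DESeq2), but 114 genes were called when every gene with a count was tested. That setting also changed the estimated spread of single genes, as given for LRP1 below. Its calls, here and in the next contrasts, are therefore not read as differences between the co-cultures.

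EGCG-treated senECs against senECs gave -0.18 (PPP1R27) to 0.20 (A2M). The same choice of members bears on this contrast, so no test of them is given and nothing is read from it on EGCG. PPP1R27 had means of 279 ± 44.1 and 246 ± 24.4 CPM (SD, n = 3, senECs and EGCG-treated senECs) and a 95% interval of the difference from -0.42 to 0.06. Of all tested genes edgeR called 0.0% here (575 at an unadjusted p below 0.05 and 0 by DESeq2), and 14 genes when every gene with a count was tested. EGCG-treated senECs against control ECs gave -0.16 (METTL7B) to 0.05 (A2M), with intervals from -0.49 to 0.46. In that contrast edgeR called 0.0% of all tested genes (1177 at an unadjusted p below 0.05 and 0 by DESeq2), and 43 genes when every gene with a count was tested. The intervals of the members over the 3 contrasts reached a size of 0.62 on the log2 scale for A2M and 0.49 for the 5 higher genes. They take no account of the choice of the members, so they set no bound on the true differences.

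**Figure D3:**
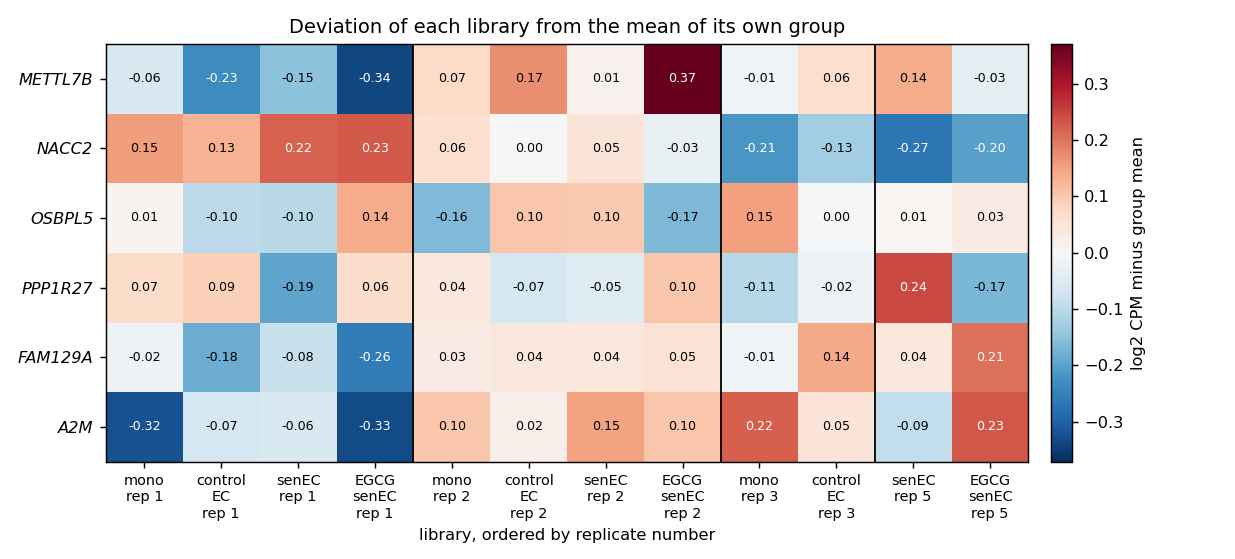
Deviation of each library from the mean of its own group in log2 CPM (colour and printed value), for the 6 genes (vertical axis) and the 12 libraries ordered by replicate number (horizontal axis). Replicate 1 lies above its group mean in all 4 groups for NACC2 and below it in all 4 for METTL7B, FAM129A and A2M.

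Within groups the members varied in different directions. For NACC2 the first replicates stood 0.13 to 0.23 above their group means on the log2 scale. For METTL7B they stood 0.06 to 0.34 below theirs and for FAM129A 0.02 to 0.26 below. NACC2 thus ran against METTL7B and FAM129A in the first replicates, while in OSBPL5 and PPP1R27 no replicate number was highest or lowest in all 4 groups. Over 14397 genes the deviations of the first replicates correlated between groups at 0.457 to 0.577. A shared order of the libraries is therefore not particular to the members. The widest deviations were those of METTL7B with EGCG-treated senECs, -0.34 in replicate 1 and 0.37 in replicate 2. A2M deviated by -0.32 in mono-culture replicate 1, the library nearest to the co-cultures.

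The relatives of each member were taken from 6 lists of genes with related biochemistry, 101 in all, of which 96 were tested. They were compared in the mean of the 3 co-cultures against mono-culture, where edgeR called 0.723% of all tested genes (0.34% higher and 0.383% lower) and the median log2 fold change over all tested genes was -0.02. In this contrast 3 of 96 relatives were called. Among the small-molecule methyltransferases, METTL7A, the closest paralog of METTL7B, fell while METTL7B stood higher. METTL7A had 11.1 to 15.2 CPM in mono-culture and 6.71 to 9.23 CPM over the 9 co-culture libraries, with no overlap (log2 fold change -0.75, SE 0.13, edgeR adjusted p 0.00645). NNMT, which methylates nicotinamide, rose from 3 to 6 counts per mono-culture library to 18 to 104 in co-culture, 0.251 against 3.47 CPM (log2 fold change 3.75, SE 0.64, edgeR adjusted p 0.00648). The endothelial gene ERG moved in the same direction, with means of 0.406 CPM in mono-culture and 1.18, 0.960 and 0.729 CPM in the co-cultures. Other listed endothelial genes went the other way. VWF had 1.34 CPM in mono-culture and 1.07, 0.647 and 1.23 CPM in the co-cultures. KDR had 0.232 CPM against 0.0741, 0.137 and 0.0536 CPM in the same order. CDH5 had 0 or 1 count per library. The part of endothelial RNA in the NNMT value was not tested. The METTL7A and NNMT calls were both lost without mono-culture replicate 2 (adjusted p 0.115 and 0.101) and without replicate 3 (0.0541 and 0.0707). The other 5 tested genes of that list were not called, and the list's median was -0.13.

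**Figure D4:**
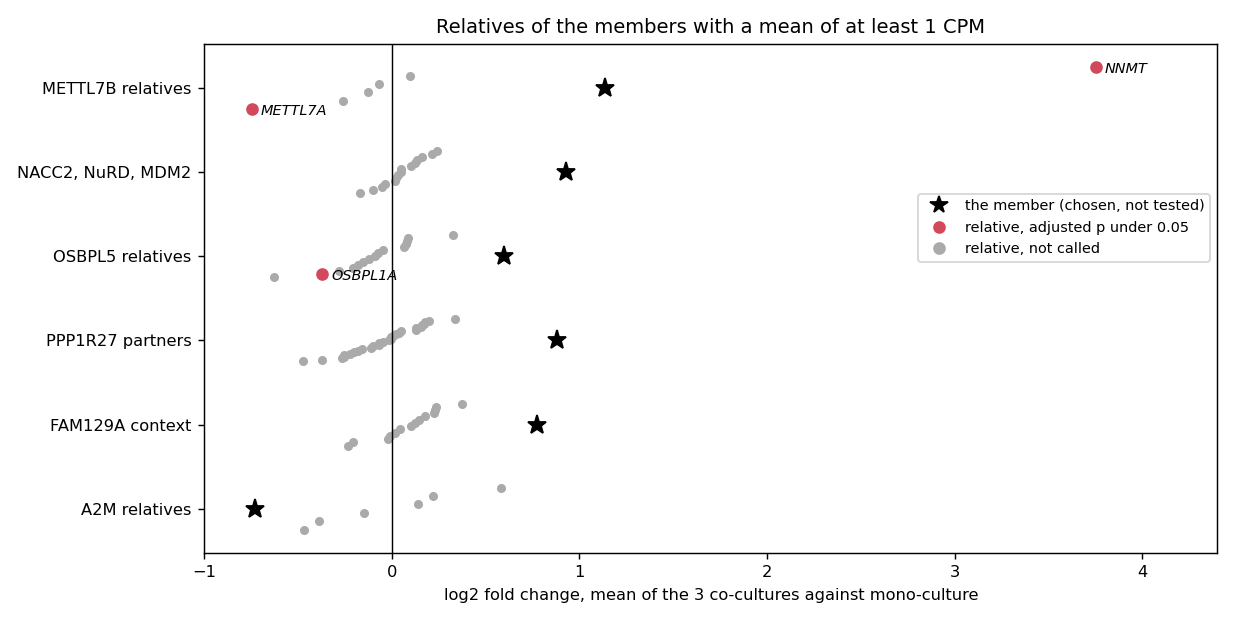
Log2 fold change of the mean of the 3 co-cultures against mono-culture (horizontal axis) for the 85 listed relatives with a mean of at least 1 CPM, 1 line per list, with the member as a star. Called relatives (edgeR adjusted p below 0.05) are METTL7A at -0.75, OSBPL1A at -0.37 and NNMT at 3.75, and the remaining relatives are grey.

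The lipid transfer relatives of OSBPL5 numbered 15 tested, with a median of -0.09. OSBPL1A, an oxysterol-binding relative of late endosomes, was the only one called, and it fell from 41.1 CPM (39.5 to 43.1) to 31.8 CPM (29.4 to 35.7), opposite to OSBPL5 (log2 fold change -0.37, SE 0.08, edgeR adjusted p 0.0355). That call was lost when any of 9 of the 12 libraries was left out, with an adjusted p of 0.314 without mono-culture replicate 2. SACM1L, the phosphatase that removes the phosphoinositide carried by OSBPL5, measured 103 and 84.8 CPM in mono-culture and co-culture (log2 fold change -0.28, edgeR adjusted p 0.191). PTDSS2, which makes phosphatidylserine, measured 18.7 and 23.5 CPM (0.33, adjusted p 0.229). Of these 15 genes 5 had an unadjusted p below 0.05, as had 10.7% of all tested genes (2772 of 25873), and this share also stands behind the unadjusted counts of the other lists.

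None of the 4 remaining lists had a called gene in the edgeR test. Of 15 genes of the NACC2 list, the paralog NACC1, subunits of the NuRD complex and MDM2, 0 were called by edgeR (2 at an unadjusted p below 0.05 and 0 by DESeq2), at a median of 0.05. Of 33 tested subunits and regulators of protein phosphatase 1, 0 were called (4 unadjusted, 0 by DESeq2), at a median of -0.02, although PPP1R15A was called when every gene with a count was tested. Of 16 genes of the NIBAN family and the integrated stress response, 0 were called by edgeR (3 unadjusted) and 1 by DESeq2, FAM129B, the paralog of FAM129A, at 26.4 CPM in mono-culture and 34.3 CPM in co-culture (edgeR log2 fold change 0.37, adjusted p 0.139). The sensor kinases and ATF4 targets placed in this list were not among its called genes. Of 10 genes of the alpha-2-macroglobulin family and its receptors, 0 were called (3 unadjusted, 0 by DESeq2), at a median of 0.00. When every gene with a count was tested, LRP1 (0.58, edgeR adjusted p 1.59e-06) and C5 (-0.46, adjusted p 0.0116) were called. LRP1, the receptor that clears A2M, measured 54.1 CPM in mono-culture and 81.3 CPM in co-culture, but its libraries overlapped (40.8 to 69.7 and 41.9 to 117 CPM, edgeR adjusted p 0.444).

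The genes that overlap a member or lie next to it were examined because the strand used in counting is not given in the sources used here. ITGA7, an integrin subunit on the opposite strand, shares 44 exonic bases with METTL7B, and it measured 14.4 ± 3.67 CPM in mono-culture (SD, n = 3) and 22.3 ± 5.32, 25.5 ± 2.42 and 26.5 ± 5.38 CPM in the co-cultures. It was called higher in the mean contrast (log2 fold change 0.78, SE 0.17, edgeR adjusted p 0.0307), with libraries of 10.1 to 16.7 and 16.2 to 32.4 CPM that overlapped. The call was lost in 6 of 12 fits that left out a library (adjusted p 0.281 without mono-culture replicate 3) and among genes with at least 10 counts in every library (0.0634). The part of shared reads in the METTL7B and ITGA7 values was not tested. A2M-AS1, the antisense gene that shares 561 exonic bases with A2M, had 1 to 16 counts per library against 81 to 206 for A2M (log2 fold change -0.13, edgeR adjusted p 0.971). RNU7-13P, inside FAM129A, had 0 to 7 counts per library.

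The nearest genes without overlap were not called in the mean contrast, where they could be tested. MCRIP1 lies 189 bases below PPP1R27 and measured 32.6 CPM in mono-culture (log2 fold change -0.05, edgeR adjusted p 0.928). P4HB lies 8108 bases above PPP1R27 and was abundant, at 1447 CPM (0.16, adjusted p 0.566). UBAC1, next to NACC2, had 0.24 (adjusted p 0.253), EDEM3, next to FAM129A, had -0.10 (adjusted p 0.724) and BLOC1S1-RDH5, next to METTL7B, had -0.64 on 11 to 39 counts per library (adjusted p 0.491). Neither neighbour of PPP1R27 was thus called. The nearest genes of OSBPL5 and A2M, the lower neighbour of METTL7B and the upper neighbours of NACC2 and FAM129A, had at most 11 counts in any library.

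For each member the genes with the most similar pattern were found over the 12 libraries, as the smallest root mean square distance of centred log2(CPM + 2) among 14397 genes with a mean of at least 1 CPM. This distance includes the shift from mono-culture for which the members were chosen, so genes with a like shift come out near. Shared control of the genes named here was not tested. FAM129A was closest to STAT3, a transcription factor of cytokine signalling (0.0844), then to the carbohydrate enzymes CHST11 (0.0975) and GCNT1 (0.126). STAT3 measured 176 CPM in mono-culture and 280, 272 and 271 CPM in the co-cultures. METTL7B was closest to LAP3, an aminopeptidase (0.149), to HSD11B1, which regenerates cortisol (0.155), and to FAM129A (0.179). PPP1R27 had the same 2 nearest genes in the other order, HSD11B1 (0.136) and LAP3 (0.148), followed by HOMER3 (0.178). HSD11B1 measured 85.5 CPM in mono-culture and 154, 166 and 158 CPM in the co-cultures. OSBPL5 was closest to SBNO2 (0.110), DHRS13 (0.112) and JAZF1 (0.121), and NACC2 to the histamine receptor HRH2 (0.153), MTSS1 (0.168) and ITGA7 (0.205). A2M was closest to FCMR (0.103), TNN (0.114) and METTL7A (0.117). FCMR measured only 2.07 CPM in mono-culture and 0.806, 0.620 and 0.994 CPM in the co-cultures, so the added 2 CPM narrows its change. ITGA7 and METTL7A, named above as a neighbour and a relative of METTL7B, were thus among the 3 nearest genes of another member. Among the 5 higher members the pairwise distance ran from 0.179 (METTL7B and FAM129A) to 0.302 (METTL7B and OSBPL5), which the choice of the members in part fixes.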

How the data were processed

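RNA of LPS-stimulated THP1 cells was sequenced by the study, and the authors deposited whole-number counts for each gene symbol without normalization, after filtering the reads and aligning them to hg38 with HISAT2. The counting tool, annotation and strand are not given in the sources used here. All 12 described libraries were grouped by their labels, and 4 columns of the count table that match no described sample were not used. All 57169 distinct symbols were found in GENCODE 29, which gave positions and exon lengths. The 6 members, the gene lists and the rules for named genes were chosen with earlier results of these data known. Genes with at least 10 counts in total (25873) entered 1 edgeR 4.0.16 quasi-likelihood fit in R 4.3.3, with TMM and a term for group only, and p-values were adjusted by Benjamini-Hochberg over all of them. SE is the absolute log2 fold change over the root of edgeR's F. Named genes are the members, overlapping and adjacent genes, called relatives and the 3 genes nearest in pattern to each member. In lists without calls, a few genes were named after their values were seen. The alternatives were DESeq2 1.42.0, its size factors, other count filters, a replicate block and leaving out each library. The planned test of the members between co-cultures is not reported, because they were chosen for being alike there. In 1 simulation of 25013 genes with 200 changed 2-fold, edgeR recovered 145 with 25 false calls for control ECs against mono-culture. It recovered 143 with 15 false calls for senECs and 158 with 21 for the mean of the co-cultures. These 3 shares of false calls exceed the 5% that the threshold aims at. For EGCG-treated senECs it recovered 139 with 4 false calls, a share below 5%. In the smallest library, 3 counts are 0.194 CPM, and 3 libraries against 3 cannot go below p = 0.1 in an exact permutation test.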

Additional observations from a re-analysis of the deposited data

How the results depend on the processing

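All 306 values of the members against mono-culture kept their sign under the 5 alternatives and the 12 fits that left out a library. The members were chosen for this shift and their co-culture libraries did not overlap mono-culture. The kept signs thus follow from the choice and lend the shift no support. Their log2 fold changes ranged over 0.84 to 1.31 for METTL7B, 0.72 to 1.08 for NACC2, 0.47 to 0.71 for OSBPL5, 0.75 to 1.08 for PPP1R27, 0.67 to 0.90 for FAM129A and -0.99 to -0.51 for A2M. Between the co-cultures several signs near 0 turned.

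With the replicate number as a replicate block, NACC2 was at 0.0037 with senECs against control ECs, OSBPL5 at 0.0139 with EGCG-treated senECs against control ECs, RNU7-13P at -0.49 and A2M-AS1 at 0.26 (mean contrast). The numbers are not known to pair the libraries: 10 of 14 same-number pairs had a correlation of deviations over 0.1 (0.0319 to 0.577), and 8 of 12 libraries correlated best with a same-number library. The pairs of replicate 1 ran from 0.457 to 0.577 and those of replicate 2 from 0.0319 to 0.336. Pairs with different numbers had a median of -0.13 and reached 0.534, for control EC replicate 3 with senEC replicate 5. The replicate block called 469, 709 and 424 genes for control ECs, senECs and EGCG-treated senECs against mono-culture, 824 for their mean, and 153, 13 and 34 for senECs against control ECs, EGCG-treated senECs against senECs and EGCG-treated senECs against control ECs. In the same order, every gene with a count gave 223, 588, 377, 582, 114, 14 and 43 calls. DESeq2 gave 120, 347, 230 and 436 against mono-culture. At least 10 counts in every library gave 36 for EGCG-treated senECs against mono-culture. The cause was not tested.

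Of the relatives, at least 10 counts in every library left 1 call in the METTL7B list, since NNMT was then not tested. The phosphatase list gained 1 call (PPP1R15A) with every gene with a count and 1 with the block, the NIBAN list 1 (FAM129B) with DESeq2, 1 with every gene and 1 with the block, and the A2M list 2 (LRP1, C5) with every gene and 3 (with CD109) with the block. The SE of LRP1 was 0.10 with every gene and 0.09 with the block, against 0.26 in the edgeR test above.

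Leaving out 1 library gave 11 to 44, 19 to 255 and 12 to 100 calls for control ECs, senECs and EGCG-treated senECs against mono-culture and 37 to 244 for their mean (93 and 59 without mono-culture replicates 1 and 3). The fewest came without mono-culture replicate 2, except 19 for senECs without senEC replicate 2, and the 255 and 244 came without senEC replicate 1. Control ECs as the reference gave 0 to 1 for senECs and 0 to 1 for EGCG-treated senECs. The METTL7B list had 0 to 2 calls and the OSBPL5 list 0 to 1. Signs turned for METTL7B (-0.15 to 0.048 for senECs against control ECs and -0.33 to 0.033 for EGCG-treated senECs against senECs), NACC2 (-0.13 to 0.10 and -0.22 to 0.016 in the same contrasts), PPP1R27 (-0.0019 to 0.22 for senECs against control ECs), FAM129A (-0.068 to 0.16 for EGCG-treated senECs against senECs), MCRIP1 (-0.13 to 0.0090), RNU7-13P (-0.30 to 0.63) and A2M-AS1 (-0.44 to 0.089). In the contrast of EGCG-treated senECs with control ECs they turned for OSBPL5 (-0.093 to 0.067), PPP1R27 (-0.10 to 0.032), FAM129A (-0.15 to 0.069) and A2M (-0.067 to 0.19). With 81 to 206 counts per library, A2M had the widest intervals of the members.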
